A study of Homo sapiens with 4 samples.

Results

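CCN1, CCN2, ANKRD1, AXL, F3, AMOTL2, LATS2, TEAD1, YAP1 and WWTR1, which are components and target genes of the transcriptional coactivators YAP and TAZ, were followed on 4 bead arrays of human prostate cancer cells, labelled DU154. The arrays form 2 groups, wild type cells and cells labelled mH2A1.2_KO, with 2 arrays in each, and in the latter the series states a depletion of mH2A1.2, 1 of the isoforms of the variant histone macroH2A1. No treatment is labelled for either group, and how the depletion was made, and whether the mH2A1.2_KO cells are 1 clone, was not stated in the sources used here. Every probe that the platform annotation gives to 1 of the 10 gene symbols was taken, 14 of the 43893 probes with a normalized value. The genes were chosen because their measured differences between these same groups went both ways, CCN2 lower and ANKRD1, F3 and AXL higher in mH2A1.2_KO. Their group differences are therefore given as a description, with no test.

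YAP1 encodes YAP and WWTR1 encodes its relative TAZ, and neither binds DNA by itself. Both enter the nucleus and join DNA-bound TEAD factors, of which TEAD1 is a member, to switch on target genes such as CCN1, CCN2 and ANKRD1. The Hippo kinases LATS1 and LATS2 phosphorylate YAP and TAZ and keep them in the cytoplasm, while LATS2 and the scaffold gene AMOTL2 are themselves targets and form a negative feedback. In epithelial cells the pathway reads cell density, polarity and tension on the actin skeleton.

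For CCN2, ANKRD1, F3 and AXL, the targets whose differences led to the choice of genes, 1 promoter window each is printed to show where TEAD and AP-1 motifs lie. RefSeq windows of build GRCh38.p14 were found for 8 of the 10 genes, 11 windows in all. CCN1 and TEAD1 had no window and were not searched for any motif. Each window covers 250 bases before an annotated start and is written 5′ to 3′ on the strand of the gene. Capitals mark GGAATG on either strand, the hexamer that TEAD factors bind, or TGANTCA, the heptamer of AP-1 factors, which often sit beside TEAD at YAP targets.
CCN2, chr6:131951373-131951622, strand -: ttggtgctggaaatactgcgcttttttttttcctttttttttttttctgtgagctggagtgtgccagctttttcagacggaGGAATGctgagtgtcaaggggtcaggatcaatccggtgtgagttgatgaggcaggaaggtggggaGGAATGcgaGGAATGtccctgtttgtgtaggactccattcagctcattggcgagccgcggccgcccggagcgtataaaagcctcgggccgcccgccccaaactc
ANKRD1, chr10:90921088-90921337, strand -: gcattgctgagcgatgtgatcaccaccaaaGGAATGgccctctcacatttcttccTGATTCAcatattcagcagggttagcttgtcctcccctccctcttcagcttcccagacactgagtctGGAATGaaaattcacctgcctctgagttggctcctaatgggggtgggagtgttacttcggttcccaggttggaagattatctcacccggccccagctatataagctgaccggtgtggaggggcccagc
F3, chr1:94541760-94542009, strand -: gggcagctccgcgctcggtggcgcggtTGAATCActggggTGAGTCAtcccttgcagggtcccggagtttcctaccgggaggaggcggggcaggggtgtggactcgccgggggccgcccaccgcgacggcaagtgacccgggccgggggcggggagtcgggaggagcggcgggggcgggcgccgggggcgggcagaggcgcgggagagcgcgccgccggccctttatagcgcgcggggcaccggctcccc
AXL, chr19:41226505-41226754, strand +: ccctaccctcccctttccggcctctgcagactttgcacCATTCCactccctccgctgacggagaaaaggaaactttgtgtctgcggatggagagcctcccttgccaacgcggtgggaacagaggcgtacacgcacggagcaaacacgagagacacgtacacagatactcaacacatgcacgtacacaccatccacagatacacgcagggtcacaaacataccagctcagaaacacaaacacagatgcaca
The CCN2 window held the TEAD hexamer 3 times, starting at bases -169, -104 and -95 from the annotated start. The ANKRD1 window held it at bases -220 and -128 and also held 1 AP-1 heptamer at base -195. F3 had no TEAD hexamer and 2 AP-1 heptamers, at bases -223 and -210. The printed AXL window, from the downstream of its 2 annotated starts, had 1 hexamer at base -212 in the opposite orientation, and the other AXL window had no match. Elsewhere, 1 hexamer lay at base -162 of YAP1 and 1 at base -69 of 1 of the 2 AMOTL2 windows, and the LATS2 and WWTR1 windows held none. Matches of the 2 motifs did not overlap each other, and the CArG box of the serum response factor SRF was not found in any member window. Of 35116 windows of the same length over all annotated genes, 11.9% held at least 1 TEAD hexamer, 0.94% at least 2 and 0.0826% at least 3. The AP-1 heptamer was in 6.57% of them at least once and in 0.402% at least 2 times, and the CArG box in 1.16%. These are letter matches in 1 window each and not measured binding.

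**Figure D1:**
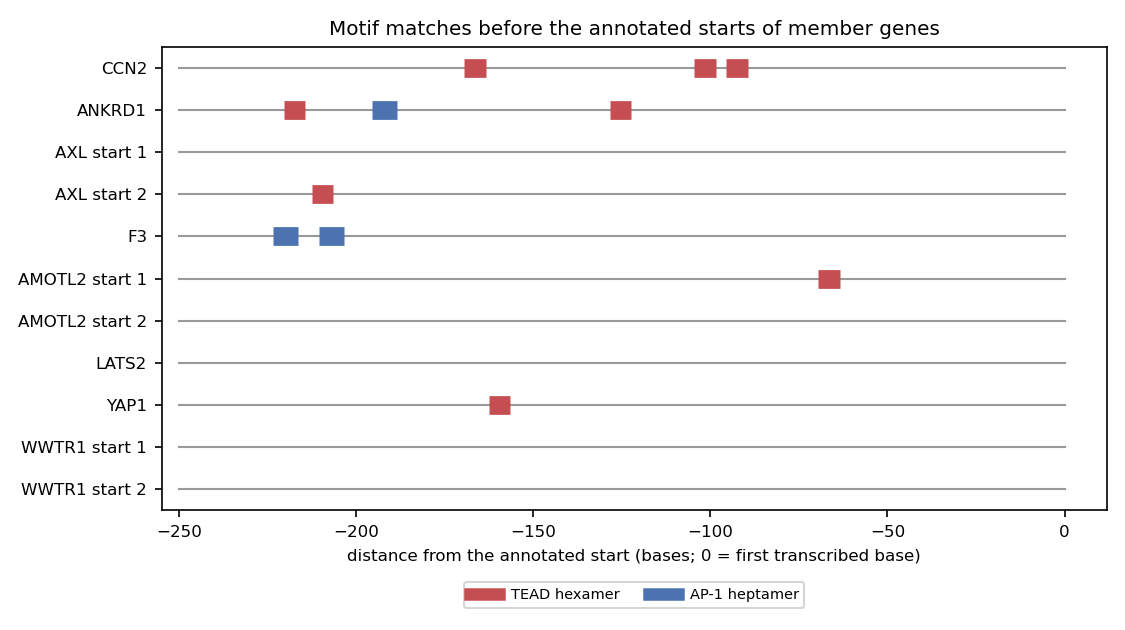
Matches of the TEAD hexamer (red) and the AP-1 heptamer (blue) in the 250 bases before the annotated starts of 8 member genes, with the distance from the start in bases on the x axis and 1 line per window. CCN2 has 3 TEAD hexamers and ANKRD1 2, while F3 has 2 AP-1 heptamers and no TEAD hexamer.

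The 2 deposited tables disagree on which array is which, and this touches every value that follows. Raw arrays were matched to normalized columns over the 8096 brightest probes (mean log2 raw signal over 8.5) and paired off with correlations of at least 0.9969, but the raw table's header gives wild type replicate 2 to the array that the normalized table calls mH2A1.2_KO replicate 1, and the reverse. Arrays are named here as in the normalized table, on which the genes were chosen. The difference mH2A1.2_KO replicate 2 minus wild type replicate 1, the pair of arrays whose groups are undisputed, is given beside each detected member. This pair also crosses replicate numbers, and group and replicate number cannot be told apart in it. Under the raw table's header the wild type arrays would be those numbered 1 here and the mH2A1.2_KO arrays those numbered 2. Values under that header thus also contrast the replicate numbers used here. MACROH2A1, the gene of the depleted variant, measured 13.02 and 12.91 in wild type cells against 11.97 and 11.83 in mH2A1.2_KO cells at its brightest probe, which is -1.07 ± 0.16 as a log2 difference (± moderated SE, n = 2 arrays in each group throughout). A second detected probe, ILMN_1746171, measured -1.02 ± 0.17, but the remaining detected probe, ILMN_1674034, measured 8.86 and 8.41 against 9.49 and 9.03 and was 0.62 ± 0.24 higher in mH2A1.2_KO without overlap. The probes of the gene thus did not run the same way. The platform annotation gives ILMN_1746171 and ILMN_1674034 the same transcript record and the brightest probe another. Which transcripts each probe reads was not examined further. Under the raw table's header the arrays with the lower signal at the brightest probe would be 1 of each group. The detected probes would then measure -0.12, 0.03 and -0.45 in the order given, and which naming is right was not tested. The number of probes with a detection p-value under 0.01 ranged from 16727 to 18377 per array. Mutual correlations over detected probes did not follow the groups throughout. Wild type replicate 1 correlated at 0.9809 with mH2A1.2_KO replicate 1 and at 0.9742 with wild type replicate 2. Wild type replicate 2 correlated at 0.9862 with mH2A1.2_KO replicate 2, and the mH2A1.2_KO arrays at 0.9871 with each other. Both wild type arrays were thus closer to the mH2A1.2_KO array of their number than to each other. All 4 markers of simple epithelium were detected, and all measured higher in mH2A1.2_KO. The keratin KRT8 measured 9.99 and 9.75 in wild type cells against 11.69 and 11.41 in mH2A1.2_KO cells, 1.68 ± 0.18 higher (limma adjusted p = 0.213), more than any member differed. The cadherin CDH1 measured 0.65 ± 0.23, the keratin KRT18 0.50 ± 0.29 with overlapping arrays and the adhesion molecule EPCAM 0.43 ± 0.16. Under the raw table's header they measured -0.26, -0.42, 0.19 and -0.04 in that order, and their part in the member differences was not tested. Of the 11 luminal prostate, fibroblast, leukocyte and endothelial markers with a probe only COL1A1 was detected on 2 arrays and none on more. Nothing in the labels says that replicates came from separate cultures, so errors measure the spread between arrays, and in bulk RNA fewer cells expressing a gene and less RNA per cell cannot be told apart.

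The coactivators themselves differed between groups by less than the spread between arrays. YAP1 gave log2 signals of 9.23 and 9.51 in wild type cells against 9.13 and 9.36 in mH2A1.2_KO cells, which is -0.12 ± 0.18 as a log2 difference. The arrays overlapped, with the lowest and the second highest value both in mH2A1.2_KO, and between the undisputed arrays YAP1 measured 0.13, on the other side of 0. WWTR1 gave 6.73 and 7.18 in wild type cells against 7.01 and 6.94 in mH2A1.2_KO cells, with means 0.02 ± 0.20 apart. The mH2A1.2_KO arrays lay between the wild type arrays, and the undisputed pair differed by 0.21. Its raw signals, from 165.8 to 190.3, were close to the array medians of 139.8 to 142.4, where background compresses differences. TEAD1, the DNA-binding partner, was read by 2 probes that were not well above background on any array, with detection p-values from 0.018 to 0.866, so no difference was measured for it. Thus 12 of the 14 probes, for 9 of the 10 genes, were kept by the filter, which asks for 2 or more arrays with a detection p-value under 0.01.

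**Figure D2:**
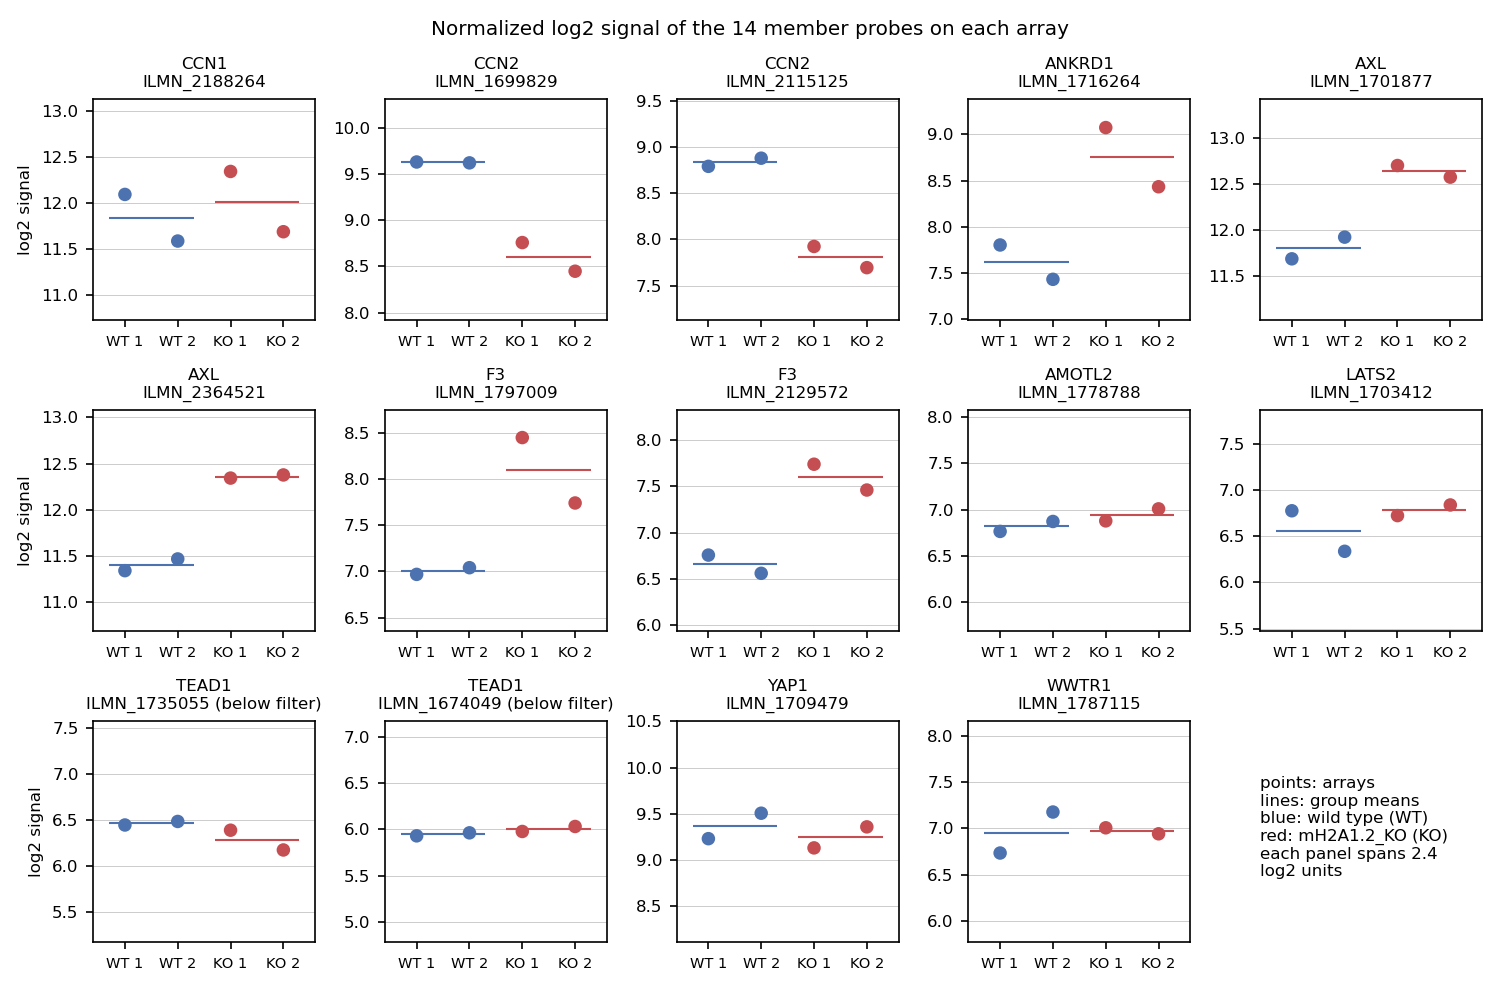
Normalized log2 signal (y axis) of the 14 member probes on the 4 arrays, wild type (WT, blue) and mH2A1.2_KO (KO, red), with points for arrays and lines for group means; every panel spans the same number of log2 units. Both CCN2 probes are lower in KO, the ANKRD1, AXL and F3 probes are higher, and YAP1 and WWTR1 overlap.

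CCN2, a secreted matricellular protein also known as connective tissue growth factor, was lower on both mH2A1.2_KO arrays. Its brighter probe, ILMN_1699829, gave log2 signals of 9.63 and 9.62 in wild type cells and 8.76 and 8.45 in mH2A1.2_KO cells. The wild type arrays differed by 0.01 and the groups were separated by a gap of 0.86 between their nearest arrays. The difference of means was -1.02 ± 0.18, a 2.03-fold lower signal. The second probe, ILMN_2115125, gave 8.79 and 8.88 against 7.92 and 7.69, which differ by -1.03 ± 0.17. The differences at the 2 probes were 0.0036 apart, both read from the same RNA samples. In the raw table the brighter probe's signal averaged 837 for wild type and 450 for mH2A1.2_KO before any normalization.

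CCN1, a secreted relative of CCN2 and likewise a TEAD target, did not separate the groups. Its probe measured 12.09 and 11.59 in wild type cells against 12.34 and 11.69 in mH2A1.2_KO cells, and the means differed by 0.18 ± 0.28. In each group replicate 1 was the higher array, and the spread within groups, 0.50 and 0.65, exceeded the difference between them. Between the undisputed arrays, which also differ in replicate number, CCN1 measured -0.40, while CCN2 measured -1.18 and -1.10 at its 2 probes. Between arrays of the same number CCN1 measured 0.25 for replicate 1 and 0.10 for replicate 2.

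ANKRD1, a cardiac ankyrin repeat protein that shuttles between the sarcomere and the nucleus in muscle and is a common YAP reporter in other cells, was higher on both mH2A1.2_KO arrays. It measured 7.80 and 7.43 in wild type cells against 9.07 and 8.43 in mH2A1.2_KO cells. The nearest arrays of the groups were 0.63 apart, about the 0.64 by which the mH2A1.2_KO arrays differed from each other. The difference of means was 1.14 ± 0.26, a 2.20-fold higher signal, with raw means of 252 and 489. Depending on which mH2A1.2_KO array was set against which wild type array, ANKRD1 ranged from 0.63 to 1.64 higher, and the lower end came from the undisputed pair.

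F3, the tissue factor that starts the extrinsic clotting cascade, was read by 2 probes and was higher on both mH2A1.2_KO arrays at each. The brighter probe, ILMN_1797009, measured 6.97 and 7.04 in wild type cells against 8.45 and 7.74 in mH2A1.2_KO cells, and the means differed by 1.09 ± 0.25 or 2.13-fold. Replicate 1 of mH2A1.2_KO stood 0.71 above replicate 2, a spread close to the 0.70 gap between the groups. The other probe, ILMN_2129572, gave 6.76 and 6.56 against 7.74 and 7.46, which differ by 0.94 ± 0.18. That probe was above background on 1 of the 2 wild type arrays and on both mH2A1.2_KO arrays, so its wild type level is near the detection limit. The raw wild type means of 178 and 154 lay little above the array medians. Between the undisputed arrays F3 measured 0.77 and 0.70 at the 2 probes.

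AXL, a receptor tyrosine kinase of the TAM family, was higher on both mH2A1.2_KO arrays at each of its 2 probes, with arrays of a group at most 0.24 apart. Its brighter probe, ILMN_1701877, measured 11.69 and 11.93 in wild type cells against 12.70 and 12.58 in mH2A1.2_KO cells, and the means differed by 0.83 ± 0.17 or 1.78-fold. The other, ILMN_2364521, measured 11.34 and 11.47 against 12.34 and 12.38, which differ by 0.96 ± 0.16 or 1.94-fold. At the latter probe the arrays within each group differed by 0.13 and 0.04 while the groups stood 0.88 apart. The raw signals of the brighter probe averaged 3567 for wild type and 6635 for mH2A1.2_KO, far above background. Over the 4 ways of setting a mH2A1.2_KO array against a wild type array, the brighter probe ran from 0.65 to 1.01. The undisputed pair gave 0.89 at that probe and 1.04 at the other.

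The feedback genes differed by 0.22 or less in the normalized values, and by more after background correction. AMOTL2, an angiomotin-family scaffold that binds YAP, measured 6.76 and 6.87 in wild type cells against 6.88 and 7.01 in mH2A1.2_KO cells, and the means differed by 0.13 ± 0.16. Its groups did not overlap, and their nearest arrays were 0.01 apart. LATS2, a Hippo kinase that is also a target, measured 6.78 and 6.34 against 6.72 and 6.84, which differ by 0.22 ± 0.20 with overlapping arrays. It was above background on 1 wild type array and both mH2A1.2_KO arrays. Between the undisputed arrays AMOTL2 measured 0.24 and LATS2 0.06. With neqc, a background correction and normalization of the raw signals, AMOTL2 measured 0.40 and LATS2 0.59. In the normalized values LATS2 ran from 0.0053 without wild type replicate 2 to 0.44 without wild type replicate 1. Raw signals of both genes, from 136.6 to 180.8, were near the array medians, where background compresses differences.

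In all, 6 of the 12 detected probes were higher without overlap of the groups and were those of ANKRD1, AXL, F3 and AMOTL2, 2 were lower without overlap, both of CCN2, and 4 overlapped. Among all 16950 detected probes 17.1% were higher and 18.5% lower without overlap, and since the genes were chosen on these differences nothing is read from the comparison. Taking the brightest probe of each of the 9 detected genes, the median difference was 0.18, beside -0.01 for all detected probes.

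**Figure D3:**
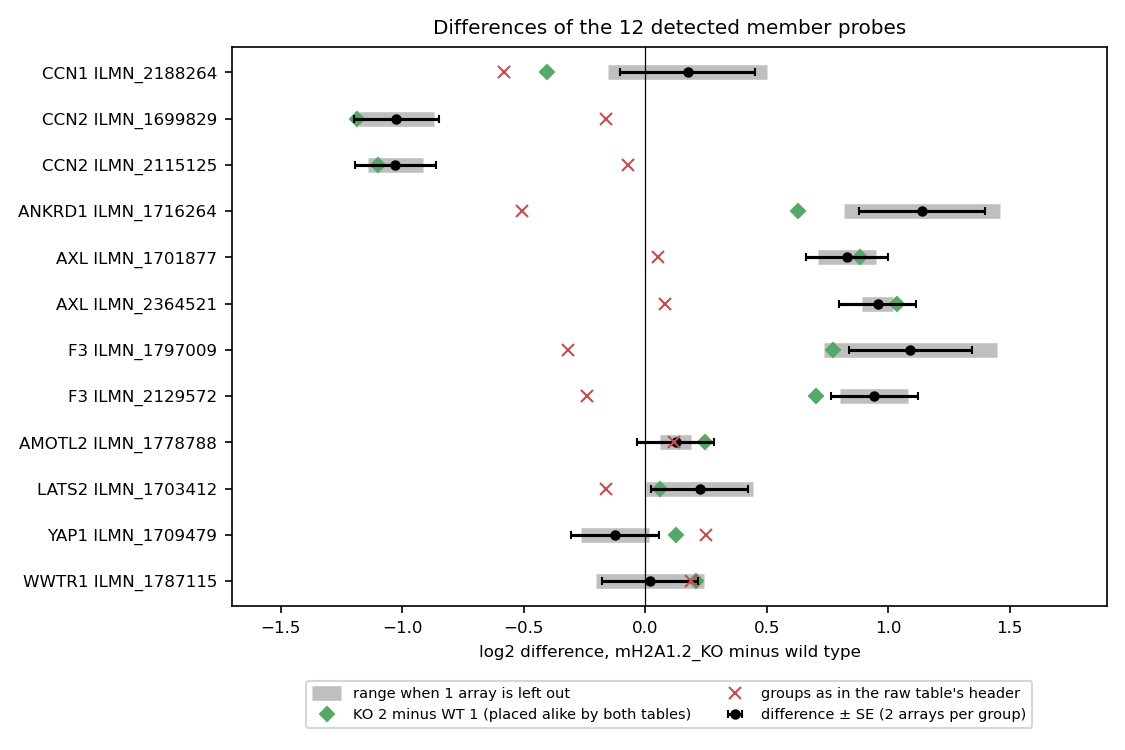
Log2 difference, mH2A1.2_KO minus wild type, of the 12 detected member probes: points with bars give the difference ± SE, grey bands the range when 1 of the 4 arrays is left out, diamonds the difference between the undisputed arrays, and crosses the difference under the raw table's header. The CCN2, ANKRD1, AXL and F3 probes were chosen for these differences, and their crosses lie between -0.51 and 0.08.

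These differences depend on the names of the arrays. The raw table's header sets the arrays numbered 1 here against those numbered 2. With groups as that header gives them, CCN2 measured -0.16 and -0.07 at its 2 probes and AXL 0.05 and 0.08. ANKRD1 then measured -0.51 and F3 -0.32 and -0.24. By limma, 2322 probes had an unadjusted p-value under 0.05 in that grouping and 1282 in the one used here. Adjusted p-values under 0.05 numbered 0 in both. The header's grouping also contrasts replicate numbers, so these counts cannot show which naming is right. When 1 array was left out under the naming used here, the brighter CCN2 probe ran from -1.18 to -0.87, ANKRD1 from 0.82 to 1.46, the brighter AXL probe from 0.71 to 0.95 and the brighter F3 probe from 0.74 to 1.45. CCN1 ran from -0.15 to 0.50, YAP1 from -0.26 to 0.01 and WWTR1 from -0.20 to 0.24, each on both sides of 0. With neqc the dim F3 probes measured 1.75 and 1.68.

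The genes whose values over the 4 arrays most resembled CCN2, by root mean square distance of log2 values centred on each gene's own mean among 10664 named genes, were CCND1 (cyclin D1), ETV4 (an ETS transcription factor) and MACROH2A1 itself. Their distances were 0.048, 0.064 and 0.072 log2 units. CCND1 measured 12.05 and 12.06 in wild type cells against 11.31 and 10.92 in mH2A1.2_KO cells. Those nearest to ANKRD1 were H2AC18, a core histone gene with a near-identical copy that its probe may also read, CPA4 (a carboxypeptidase) and MT1M (a metallothionein), at 0.045, 0.074 and 0.077. H2AC18 measured 10.51 and 10.20 in wild type cells against 11.87 and 11.26 in mH2A1.2_KO cells. With 4 arrays many genes can share such an order of values.

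Genes of the pathway outside these 10 were taken from 7 lists, and here the test applies, limma over all 16950 detected probes. It called 0 of them (0%) at a Benjamini-Hochberg adjusted p-value under 0.05, and the lowest adjusted p-value was 0.193. At an unadjusted p-value under 0.05, 4.36% of probes were higher and 3.2% lower. Of 80 listed genes 62 were tested at their brightest detected probe, 40 measured higher and 22 lower, and 0 passed the test. At the unadjusted level 7 were higher and 4 lower, and the lists were chosen with earlier results of these data known. Of all detected probes 52.1% measured lower. The count of 0 over all probes became 69 without wild type replicate 1 and 211 without wild type replicate 2, and stayed 0 without either mH2A1.2_KO array. With 1 wild type array left, the spread came from the mH2A1.2_KO pair alone and the lone array was assumed to vary like it. The mH2A1.2_KO arrays differed from each other by an SD of 0.281 over detected probes and the wild type arrays by 0.398. Of the listed genes WWC1 then passed without replicate 1 and without replicate 2 of wild type, and DOCK5, VGLL4, TFPI2 and MERTK without wild type replicate 2.

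Further YAP and TAZ target genes measured mostly higher by small amounts. Of 14 tested 10 were higher and 4 lower, with a median log2 difference of 0.27 that became -0.08 under the raw table's header. Among them 0 passed the test and 0 had an unadjusted p-value under 0.05. Arrays did not overlap for 6 higher and 1 lower, beside 17.1% and 18.5% of all detected probes. DOCK5, a guanine nucleotide exchange factor, measured 6.92 and 7.69 in wild type cells against 7.90 and 7.97 in mH2A1.2_KO cells, and the means differed by 0.63 ± 0.27 (limma adjusted p = 0.673). DOCK5 measured 0.25 without wild type replicate 1 and 1.01 without wild type replicate 2. AJUBA, a LIM protein that restrains LATS kinases, differed by 0.54 ± 0.25 (limma adjusted p = 0.716), and FJX1, a relative of the fly planar polarity gene four-jointed, by 0.47 ± 0.32 with overlapping arrays. IGFBP3, an insulin-like growth factor binding protein, split by replicate number, which is also how the raw table's header groups the arrays. It measured 8.34 and 10.28 in wild type cells against 8.46 and 9.95 in mH2A1.2_KO cells, and 1.61 between the undisputed arrays. Under that header its groups would not overlap. IGFBP3 was chosen for mention after its values were seen.

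In the kinase cassette and its upstream regulators 10 of 13 tested genes measured higher and 3 lower, with a median of 0.13. That median ran from 0.03 to 0.10 when 1 array was left out. WWC1, the scaffold KIBRA that helps to activate LATS kinases, had the largest difference of any listed gene. It measured 9.27 and 8.99 in wild type cells against 10.63 and 10.36 in mH2A1.2_KO cells, 1.37 ± 0.19 higher or 2.58-fold, and did not pass the test (limma adjusted p = 0.213). The groups stood apart by 1.09 while arrays within each group differed by 0.28 and 0.28. WWC1 measured -0.28 under the raw table's header. MAP4K4, a kinase that acts beside MST kinases, measured 0.37 ± 0.18 and STK4, the kinase MST1, -0.28 ± 0.16 relative to wild type. LATS1, NF2 and AMOTL1 had no probe above the filter.

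Among TEAD relatives and VGLL cofactors 3 of 6 genes were detected. VGLL4, which competes with YAP for TEAD, measured 7.91 and 8.11 in wild type cells against 8.96 and 8.89 in mH2A1.2_KO cells, 0.92 ± 0.16 higher (limma adjusted p = 0.291). TEAD2 measured 10.04 and 10.08 against 9.12 and 9.42, which differ by -0.79 ± 0.17 (limma adjusted p = 0.392). TEAD4 measured 9.14 and 9.52 against 8.82 and 9.19, which differ by -0.32 ± 0.21 with overlapping arrays. TEAD3 and the cofactors VGLL1 and VGLL3 were not detected. The VGLL4 and TEAD2 values of the mH2A1.2_KO arrays lay on opposite sides of wild type without overlap, but neither passed the test.

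The phosphatase complex STRIPAK, which removes activating phosphates from MST kinases, had 4 higher and 3 lower of 7 tested genes and a median of 0.02. PPP2CA, the catalytic subunit, measured 0.61 ± 0.21 (limma adjusted p = 0.559), MOB4 -0.33 ± 0.17 and STRN 0.27 ± 0.16, with -0.02 at a second STRN probe. PPP2CA ran from 0.37 without wild type replicate 1 to 0.86 without wild type replicate 2. Polarity regulators had 3 higher and 4 lower of 7, with a median of -0.01. CRB3, an apical Crumbs protein, measured 0.55 ± 0.16 (limma adjusted p = 0.491), SCRIB -0.29 ± 0.16 and PALS1 0.27 ± 0.18. The 3 SCRIB probes ran from -0.29 to 0.02. Both list medians lay near 0 and changed sign without wild type replicate 1, to -0.01 for STRIPAK and 0.20 for polarity regulators. The polarity median changed sign in 5 of 13 alternative settings, among them neqc (0.25) and quantile normalization of the log2 raw signals (0.07).

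SRF and its coactivators MRTF drive CCN1, CCN2 and ANKRD1 too, so their genes were listed as well. Of 10 tested 9 measured higher and 1 lower, with a median of 0.12 that became -0.02 under the raw table's header. The test called 0 of them. Among those counted as higher, MRTFA, ACTA2 and MRTFB measured 0.00049, 0.0020 and 0.0089, which is no difference. They were named after their values were seen. The actin-binding proteins TAGLN, TPM1 and VCL measured 0.70 ± 0.53, 0.60 ± 0.24 and 0.50 ± 0.20, and TAGLN overlapped between groups, with 6.86 and 8.34 in wild type cells against 7.78 and 8.81 in mH2A1.2_KO cells. A second probe measured 0.25 for TAGLN and 0.38 for VCL, and the 3 TPM1 probes ran from 0.31 to 0.66. At its brightest probe TPM1 ran from 0.29 without wild type replicate 1 to 0.90 without wild type replicate 2. The 1 lower gene was SRF itself, with 10.79 and 10.83 against 10.42 and 10.26, which differ by -0.47 ± 0.16 (limma adjusted p = 0.564), and it was named after its values were seen.

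Among relatives and partners of the members 3 of 8 tested genes measured higher and 5 lower, with a median of -0.19. That median was 0.05 without wild type replicate 1 and -0.39 without wild type replicate 2, so its sign rested on 1 array. GAS6, the ligand of AXL, measured 8.99 and 8.80 in wild type cells against 10.12 and 9.70 in mH2A1.2_KO cells, 1.02 ± 0.20 higher (limma adjusted p = 0.333), with 0.93 at its second probe. The groups stood 0.71 apart. MERTK, another TAM receptor that binds GAS6, measured 8.68 and 8.26 against 7.79 and 7.56, which differ by -0.79 ± 0.20 (limma adjusted p = 0.448), with -0.37 at its second probe. TFPI2, a protease inhibitor related to the F3 pathway inhibitor TFPI, measured 8.14 and 7.21 against 7.07 and 6.47, which differ by -0.91 ± 0.35 (limma adjusted p = 0.629), and was above background on 1 of the mH2A1.2_KO arrays. It ran from -0.44 without wild type replicate 1 to -1.37 without wild type replicate 2. Under the raw table's header GAS6 measured -0.31, MERTK -0.33 and TFPI2 -0.76.

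**Figure D4:**
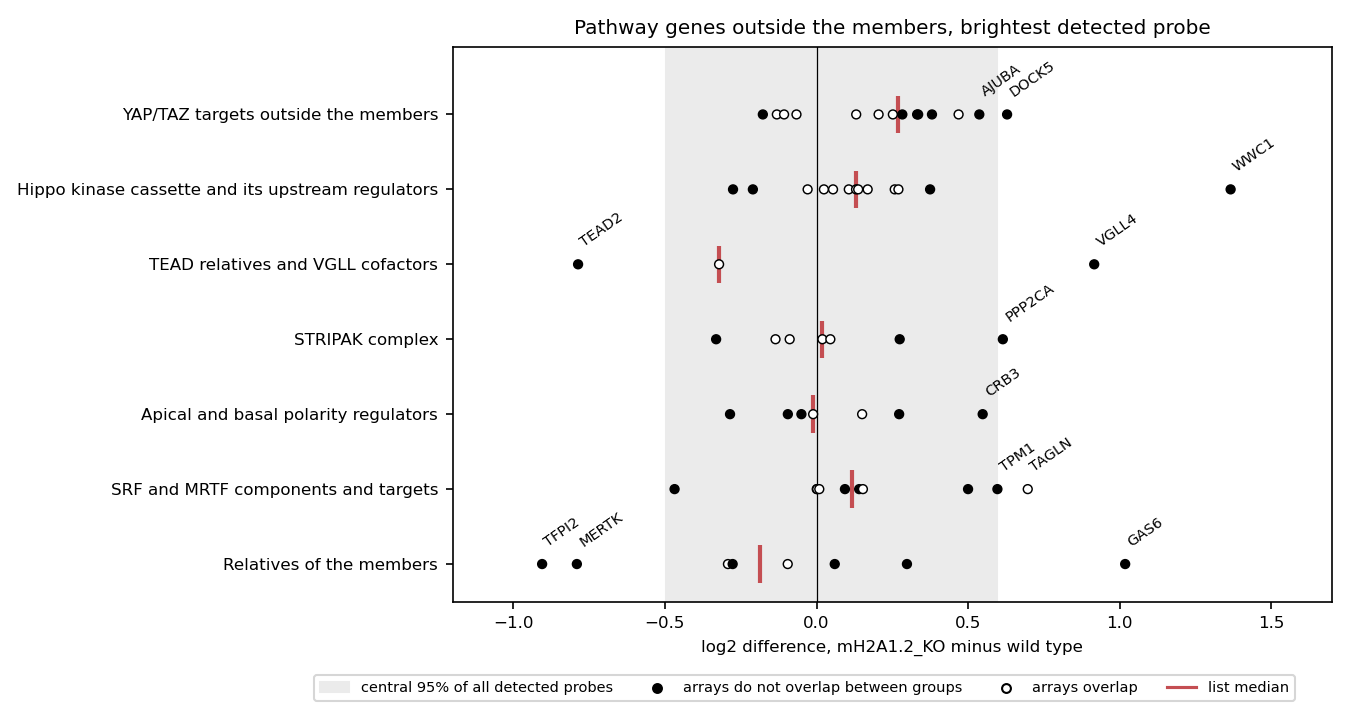
Log2 difference, mH2A1.2_KO minus wild type, of 62 pathway genes outside the members in 7 lists, 1 point per gene at its brightest detected probe, filled where the arrays of the groups do not overlap, with red ticks for list medians and a grey band for the central 95% of all detected probes, from -0.50 to 0.60. WWC1 (1.37), GAS6 (1.02), VGLL4 (0.92), TAGLN (0.70), DOCK5 (0.63), PPP2CA (0.61) and, at its edge, TPM1 (0.60) lie above the band and TFPI2 (-0.91), MERTK (-0.79) and TEAD2 (-0.79) below it.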

How the data were processed

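Per the labels' protocols, biotinylated cRNA from total RNA was hybridised to single-colour Illumina arrays; GenomeStudio is named per the submitters' processing notes. The authors deposited raw intensity on a linear scale, and beside each such value a detection p-value. The authors also deposited normalized log2 values by a method not given in the sources used here. These were quantile normalized across the 4 arrays. The 64 blank rows were left out, and 29471 probes had 1 gene symbol, updated through RefSeq gene identifiers. The filter kept 16950 probes (detection p-value under 0.01, 2 or more arrays). limma 3.58.1 (R 4.3.3) compared the groups by lmFit and eBayes, two-sided, with Benjamini-Hochberg adjustment over all kept probes and a threshold of 0.05. SE is the moderated one. A listed gene was read by its brightest kept probe. The fit was tested on simulated data.

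Members, lists and tests were chosen with earlier results of these data known. All member probes were named, with the 3 largest differences per list and the 3 genes nearest to CCN2 and to ANKRD1. Alternatives were other filters, normalizations, array names, a replicate block and leaving out arrays. Precision is limited by the number of arrays, which have no read depth.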

Additional observations from a re-analysis of the deposited data

How the results depend on the processing

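For the member probes whose groups do not overlap, leaving out an array cannot turn the sign, and the detection filter, the replicate block and the choice of probe leave a difference as it was, so these say nothing of how stable it is. No probe passed the test as reported, and the count was 5 with no detection filter. It ran from 0 to 211 when 1 array was left out, 69 without wild type replicate 1 and 211 without wild type replicate 2, fits in which the spread came from the mH2A1.2_KO pair alone. Of the pathway genes 0 passed, and from 0 to 5 did when 1 array was left out, 1 (WWC1) without wild type replicate 1 and 5 (WWC1, DOCK5, VGLL4, TFPI2 and MERTK) without wild type replicate 2. With the replicate number as a block 647 probes and 8 pathway genes passed (WWC1, TEAD2, PPP2CA, VGLL4, TAGLN, GAS6, TFPI2 and MERTK). The deviations of same-numbered arrays from their group means correlated at 0.567 across probes, but the labels do not say that numbers pair the arrays.

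Signs turned for pathway genes under the raw table's header, where WWC1 measured -0.28, TEAD2 0.17, TEAD4 0.37, SCRIB 0.10, PALS1 -0.23, VCL -0.26 and GAS6 -0.31. When 1 array was left out FJX1 ran from -0.0089 to 0.95 and TAGLN from -0.044 to 1.44, both lowest without wild type replicate 1. TEAD4 measured 0.052 between the arrays whose groups are undisputed, a comparison of 1 array with 1 that allows no test. Dim probes such as those of LATS2, AMOTL2 and WWTR1 had signals near background, which limits what they can show.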
